A study of Homo sapiens with 12 samples.

Results

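The comparison described here is that of RNA treated in vitro with the exonuclease Xrn1 against untreated RNA, both from cells in which K294A had been induced. It takes 6 of the 12 arrays of the series, chosen by their labels as doxycycline positive: 3 with Xrn1 and 3 without. The cells were U2OS, a human osteosarcoma line, and every group of the series carries the stable K294A transgene, an inactive form of the capping enzyme. In both groups doxycycline was given at 1 ug/ml for 24 h, cytoplasmic RNA was extracted and ribosomal RNA was depleted, and the groups differ in the Xrn1 step. The remaining 6 arrays, 3 untreated and 3 with Xrn1, came from cells of the same line without doxycycline. The RNA was hybridised to exon arrays, which carry short probe sets along the exons of each gene. A gene's level is the mean of its probe sets' log2 values, and 16883 genes were tested. The labels call the arrays of a group biological replicates without naming separate cultures. The p-values thus measure only a spread between these samples, which the fit pooled over all genes and all 12 arrays. The line may be a pool or a clone, which the labels do not say.

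Xrn1 digests RNA from the 5′ end and needs a 5′ monophosphate to start. The cap of an mRNA, like a 5′ triphosphate, blocks it, and digestion in vitro is therefore used to separate RNAs with an accessible 5′ end from capped ones. A cytoplasmic form of the capping enzyme can restore caps on some uncapped mRNAs, and K294A is used as a dominant inhibitor of that step. The arrays record relative amounts, since RMA gives all arrays the same distribution of values. A rise of a gene's RNA and a smaller loss than that of other genes cannot be told apart on this scale.

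The 3 untreated arrays differed from each other more than the 3 Xrn1 arrays did. Correlations of gene levels lay between 0.84 and 0.89 among untreated arrays and between 0.94 and 0.96 among Xrn1 arrays, and the median SD of a gene was 0.51 in the untreated group and 0.16 in the Xrn1 group. Over all probe sets, untreated replicate 3 correlated at 0.80 to 0.83 with the Xrn1 arrays and at 0.71 to 0.73 with the other untreated arrays. On gene levels the order was the reverse. There it correlated at 0.61 to 0.76 with the Xrn1 arrays and at 0.84 and 0.87 with the other untreated arrays. The number of genes above a level of 6 was 327, 823 and 596 on untreated replicates 1 to 3 and 201, 144 and 298 on Xrn1 replicates 1 to 3. Untreated replicate 2 was thus the array with the most bright genes and Xrn1 replicate 2 the one with the fewest, and where a count of a list moves by over 1.5 times without either, it is given without it too.

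Xrn1 treatment went with lower levels of 3000 of the 16883 genes (17.8%) and higher levels of 3643 (21.6%), at an adjusted p below 0.05 in limma with Benjamini-Hochberg adjustment. Values of the 2 groups did not overlap for 3808 genes with lower levels (22.6%) and for 4783 with higher levels (28.3%). The falls were larger and concerned brighter genes: the genes called lower had a median level of 4.51 untreated and 3.15 after Xrn1, with a median change of -1.27 on the log2 scale, and the genes called higher went from 2.81 to 3.90, with a median change of 1.04. The median change of all genes was 0.10. limma assigned every gene the same SD of 0.418 and thus a standard error of 0.34 for this difference, the same for every gene named below. With each gene's own spread in its place, 1037 genes were called lower (6.14%) and 455 higher (2.70%); with that spread taken from the 6 induced arrays alone, 1 gene passed limma's linear model without a prior, and 5487 had an unadjusted p below 0.05. Falls also outlasted the loss of an array more often: 1701 genes stayed called lower with all arrays and without each of the 6 induced arrays in turn (10.1%), against 506 called higher (3.00%). Without untreated replicate 2 there were 1831 genes called lower and 564 called higher. An exact permutation test of 3 arrays against 3 cannot give a two-sided p below 0.10, so single genes were judged by the fit alone.

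**Figure D1:**
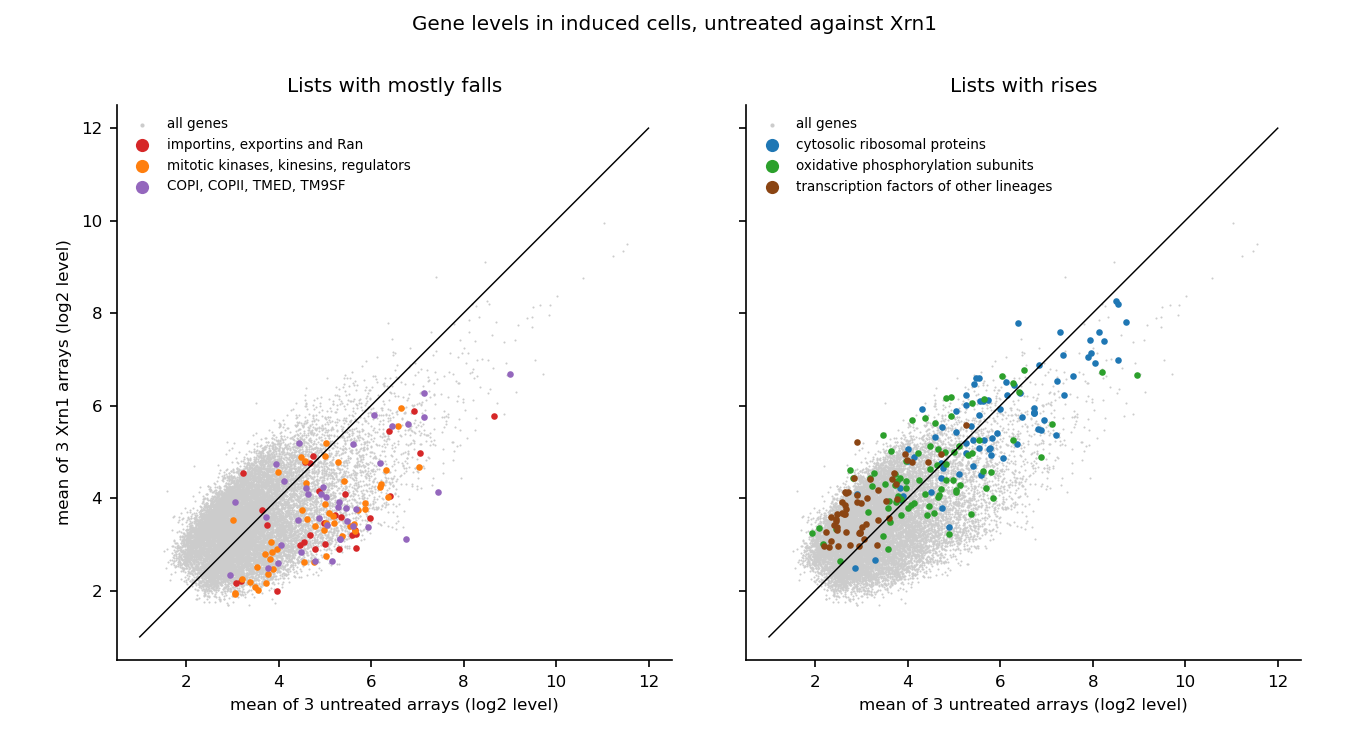
Each point is a gene, with its mean log2 level on the 3 untreated arrays on the x axis and on the 3 Xrn1 arrays on the y axis; the line marks equal levels and coloured points are members of 3 lists per panel. Most members of the nuclear transport, mitosis and coat lists lie below the line, whereas ribosomal proteins and respiratory chain subunits lie on both sides and the transcription factors of other lineages mostly above it.

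Over the 10 largest falls the change ran from -3.65 to -3.03. TMED7, a cargo receptor of vesicles between endoplasmic reticulum (ER) and Golgi, had levels of 6.05, 7.46 and 6.75 on the untreated arrays and 3.26, 2.89 and 3.19 after Xrn1. Every Xrn1 value lay below every untreated one, and the change was -3.65 (limma adjusted p = 2.3e-22, and 0.011 with its own spread). SLC38A2, a sodium-coupled transporter of neutral amino acids, had 7.58, 8.32 and 7.95 untreated and 4.59, 3.90 and 4.83 after Xrn1. Its change was -3.51 (limma adjusted p = 7.3e-21, and 0.0081 with its own spread), and again the groups did not overlap. TM9SF3, a multispanning protein of the Golgi, fell from 7.25, 7.91 and 7.18 to 4.44, 3.52 and 4.42. ATP13A3, a P5-type transport ATPase, fell from 6.11, 7.26 and 6.72 to 3.77, 2.91 and 3.43. In each of these genes untreated replicate 2 was the highest array and Xrn1 replicate 2 the lowest.

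The other members of the 10 largest falls were BMPR1A, a receptor for bone morphogenetic proteins (-3.20), AZIN1, the antizyme inhibitor of polyamine metabolism (-3.10), ZMPSTE24, the protease that matures prelamin A (-3.08), PDIA6, a disulphide isomerase of the ER (-3.07), ARL6IP1, an ER-shaping membrane protein (-3.03), and CLTC, the clathrin heavy chain (-3.03). Among genes with a mean level above 5 over all 12 arrays, TFRC, the transferrin receptor (-3.02), and POLR2B, the second-largest subunit of RNA polymerase II (-2.99), joined them. ARL6IP1 was the brightest, with a mean of 9.71 ± 0.32 (SD, n = 3) untreated and 6.68 ± 0.66 after Xrn1. All 10 of the largest falls passed with each gene's own spread and without untreated replicate 2. They carried 7 to 46 probe sets on the array, with a median of 23.5, and without the filter on dim probe sets all 10 passed, with changes between -3.28 and -2.71. After cyclic loess, which removes a trend of the change with level, the brightest were smaller: ARL6IP1 changed by -1.52 and PDIA6 by -1.82, both still called.

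**Figure D2:**
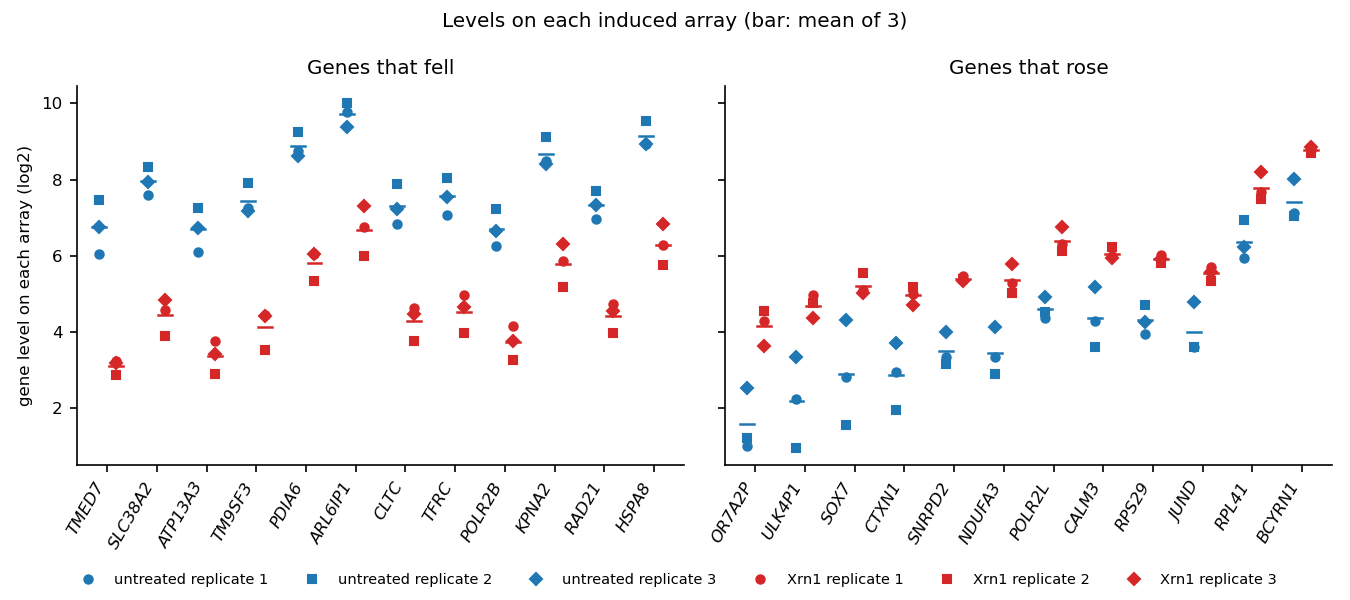
The log2 level of 12 genes that fell (left) and 12 that rose (right) is shown on each of the 3 untreated and 3 Xrn1 arrays of induced cells, with bars at the group means. For every gene shown the 2 groups do not overlap; in most of the rises untreated replicate 3 lies nearest to the Xrn1 arrays.

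Lists of genes with a common role were described by how many of their measured members were called, beside the 17.8% lower and 21.6% higher of all genes and the median change of 0.10. Along the secretory pathway most mRNAs fell. Of 32 genes for entry into the ER and N-glycosylation 24 were called lower and 1 higher, with a median change of -1.37. The list includes STT3B and STT3A, the catalytic subunits of oligosaccharyltransferase (-2.42 and -2.28), SRP72 of the signal recognition particle (-2.34) and TRAM1 of the translocon (-2.25). Of 39 genes of the COPI and COPII coats and of the TMED and TM9SF families 28 fell and 1 rose, with a median of -1.31; beside TMED7 and TM9SF3 these include TM9SF2 (-2.55) and ERGIC2 (-2.52). Of 28 ER chaperones and disulphide isomerases 18 fell and 2 rose, with a median of -1.23. HSP90B1, the HSP90 of the ER lumen, went from 7.55, 8.55 and 7.65 to 5.47, 4.60 and 5.38, with no overlap; DNAJC10 (-2.73), a reductase of the ER lumen, and SEL1L (-2.72), an adaptor of ER-associated degradation, also fell. The members called higher, which were named after their values were seen, were SSR4, COPE, SDF2L1 and FKBP2, and 1 of these 4 passed without untreated replicate 2. Called without each array in turn were 17, 21 and 14 of the falls in the order of these lists.

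Past the Golgi the picture was mixed. Of 27 clathrin and adaptor genes 10 fell and 2 rose, with a median of 0.04: CLTC and AP2B1 (-1.99), the large chains of coat and adaptor, fell, and EPN1, an epsin of endocytosis, rose from 2.99, 2.67 and 4.29 to 5.27, 5.00 and 5.30 (1.88). The groups did not overlap for EPN1, and 1 gene of the list rose without untreated replicate 2. Of 56 RAB GTPase genes 13 fell and 9 rose, with a median of -0.04. The falls were led by RAB1A and RAB2A, which act between ER and Golgi (-2.29 and -2.28). Without untreated replicate 2 there were 8 falls and 2 rises, and over the other left-out arrays the rises ranged from 2 without Xrn1 replicate 2 to 15 without untreated replicate 3. Of 34 lysosomal genes 14 fell and 2 rose, among them ATP6V1C1 of the proton pump (-2.41) and LAMP2 of the lysosomal membrane (-2.12); none rose without untreated replicate 2. At the cell surface 13 of 29 adhesion receptors fell and 1 rose. The falls were led by the integrins ITGB1 (-2.79) and ITGAV (-2.73) and by ALCAM (-2.03). Without untreated replicate 2 or without Xrn1 replicate 2, 7 fell and none rose. Of 37 growth factor and BMP/TGF-beta receptors 17 fell and 2 rose. FZD6, a Wnt receptor (-2.76), and IL6ST and LIFR, which form the receptor of leukaemia inhibitory factor (-2.61 and -2.53), were among the falls. The count of falls was 11 without untreated replicate 2, 10 without untreated replicate 3 and 11 without Xrn1 replicate 2. The rises were 0, 6 and 1 in that order. Of 23 amino acid transporters 9 fell and 1 rose, SLC7A11 of cystine uptake among the falls (-1.90). Without Xrn1 replicate 2 there were 5 falls, and none rose without that array or without untreated replicate 2.

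Nuclear transport genes fell in most cases. Of 30 importins, exportins and Ran genes 23 fell and 1, NXT1 (named after its value was seen, and not called without untreated replicate 2), rose; the median change was -1.50. KPNA2, an importin alpha, had 8.47, 9.12 and 8.42 untreated and 5.85, 5.18 and 6.30 after Xrn1. The groups did not overlap, and the change was -2.89 (limma adjusted p = 2.6e-14, and 0.010 with its own spread). XPO1, the main exportin (-2.76), XPOT, the tRNA exportin (-2.45), and KPNA4 (-2.43) fell as well. Of 30 nuclear pore genes 22 fell and none rose (median change -1.40); they include NUP155 of the pore's inner ring (-2.79), NUP43 and SEH1L of its Y-shaped outer complex (-2.15 and -2.03) and RANBP2 of its cytoplasmic filaments (-1.96). In each of both lists 19 of the falls were called without each array in turn.

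Chromosome and cell division genes fell in most cases as well. Of 23 cohesin, condensin and SMC genes 20 fell and none rose (median change -1.28). RAD21, the cleavable ring subunit of cohesin, went from 6.97, 7.70 and 7.32 to 4.75, 3.97 and 4.56, again without overlap (-2.90); PDS5A, a cohesin regulator, changed by -2.27. Of 50 mitotic kinases, kinesins and regulators 39 fell and none rose (median change -1.41); examples were DLGAP5 of the spindle (-2.37), the cyclin CCNB1 (-2.36) and the kinase AURKA (-2.36). Of these 2 lists, 14 and 29 falls were called without each array in turn. Of 48 replication genes 27 fell and 2 rose, PRIM2 and PRIM1 of primase among the falls (-2.15 and -1.99); 15 fell without untreated replicate 2 and 17 without Xrn1 replicate 2, and none rose without either. Of 52 chromatin remodellers and modifiers 20 fell, CHD4 (-1.68) and ATRX (-1.50) among them, and none rose. The count of falls was 12 without untreated replicate 2 and 13 without Xrn1 replicate 2.

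Translation factors, chaperonins and proteasome subunits fell in most cases too. Of 45 translation initiation, elongation and termination factors 30 fell and none rose (median change -1.17). They include EIF2S3, the gamma subunit of eIF2 (-2.78), the recycling factor ABCE1 (-2.51) and EIF3M (-2.28). Of 18 cytosolic aminoacyl-tRNA synthetases 11 fell and none rose, IARS1 for isoleucine (-2.63) and TARS1 for threonine (-2.40) among them. Of 14 genes of the TRiC/CCT chaperonin and prefoldin 9 fell and none rose; TCP1 went from 7.34, 8.29 and 7.70 to 5.21, 4.27 and 4.97 (-2.96), and CCT6A changed by -2.47. Of 29 heat shock proteins 16 fell and 1, BAG1 (named after its value was seen, and not called without untreated replicate 2), rose. HSPA8, the constitutive HSP70, went from 8.93, 9.54 and 8.93 to 6.28, 5.76 and 6.84 with no overlap (-2.84), and HSP90AA1 changed by -2.78. Of 39 proteasome subunits 23 fell and none rose, led by PSMA4 (-2.41) and PSMA6 (-2.19); 14 fell without untreated replicate 2. Of 37 ubiquitin enzymes 17 fell and 4 rose; without untreated replicate 2 these were 9 and 2, and without Xrn1 replicate 2 they were 9 and 3. UBA6, an E1 enzyme (-2.18), and the cullin CUL3 (-2.04) fell, whereas UBE2S, an E2 enzyme of the anaphase-promoting complex, rose from 3.81, 4.26 and 5.04 to 5.66, 5.76 and 5.99 (1.43).

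mRNAs of the RNA decay and capping machinery were themselves among the genes that fell. XRN1, the cell's own form of the enzyme added in vitro, had 3.10, 4.02 and 3.87 untreated and 2.53, 2.43 and 2.37 after Xrn1. The groups did not overlap, and the change was -1.22 (limma adjusted p = 0.0025); with the gene's own spread the adjusted p was 0.076. RNGTT, the capping enzyme gene from which K294A derives, had 3.26, 4.56 and 4.18 against 2.70, 2.28 and 2.45 (-1.52, limma adjusted p = 1.3e-04, and 0.069 with its own spread). The array does not tell the transgene's RNA from that of the gene. Of 14 genes for capping, cap methylation and cap binding 8 fell and 1 rose, with a median of -0.99; EIF4E, the cytoplasmic cap-binding protein, changed by -2.06 and the cap methyltransferase RNMT by -1.86. The rise was that of PCIF1, named after its value was seen, which was not called without untreated replicate 2.

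Of 18 deadenylase genes 11 fell, with a median of -0.98, among them CNOT1, the scaffold of the CCR4-NOT complex (-2.21), and its nuclease CNOT7 (-2.13). Of 17 RNA exosome genes 9 fell, including the helicase MTREX (-2.61). CNOT3 and EXOSC4, named after their values were seen, were the rises of these 2 lists, and neither was called without untreated replicate 2. Of 25 decapping and 5′-3′ decay genes only 6 fell, including the helicase DDX6 (-2.25), PNRC2 (-2.13) and the nuclear exonuclease XRN2 (-1.69). In that list LSM7, a subunit of the LSM ring, rose from 2.88, 2.12 and 3.68 to 4.57, 4.61 and 4.72 with no overlap (1.74). Of 13 nonsense-mediated decay genes 4 fell, the kinase SMG1 among them (-1.33), and 1 fell without untreated replicate 2 or without Xrn1 replicate 2.

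Metabolic genes fell in part. Of 36 sterol and lipid synthesis enzymes 17 fell and 3 rose; LPCAT3, which remodels phospholipids, went from 7.63, 7.95 and 7.75 to 5.13, 4.84 and 5.65 (-2.57), and CYP51A1 and MSMO1 of cholesterol synthesis changed by -2.44 and -2.38; 1 rose without untreated replicate 2 and 2 without Xrn1 replicate 2. Of 29 glycolysis genes with HIF1A 13 fell and 2 rose, and none rose without untreated replicate 2. LDHA, lactate dehydrogenase A (-2.65), HIF1A, the hypoxia-inducible factor (-2.48), and ENO1, enolase 1, which went from a mean of 8.91 to one of 6.91, were among the falls. ODC1, ornithine decarboxylase, changed by -2.05, with 6 of 14 polyamine genes lower and 3 higher. None of the list was higher without untreated replicate 2. Of 42 actin, tubulin and intermediate filament genes 14 fell and 2 rose, and 1 rose without untreated replicate 2 or without Xrn1 replicate 2. ACTR2 and ACTR3 of the Arp2/3 complex were among the falls (-2.47 and -2.44). Of 38 bone and matrix genes 10 fell and 4 rose, and 2 rose without untreated replicate 2. Among the falls THBS1, thrombospondin 1, was at 9.58, 9.63 and 9.44 untreated and 6.93, 6.58 and 7.47 after Xrn1. THBS1 was the most even of the bright falls before treatment, with an SD of 0.099 among untreated arrays. MTHFD2 of mitochondrial folate metabolism, a target of the integrated stress response, changed by -2.36, and CCNG1 and PLK2, p53 targets, by -2.28 and -2.26. Of 30 genes in the list of p53 and its targets 11 fell and 3 rose. Without untreated replicate 2 there were 7 falls and 1 rise, and without Xrn1 replicate 2 there were 7 and 2. After cyclic loess 8 glycolysis and 7 cytoskeletal genes were lower, and the changes of the bright genes were smaller: LDHA changed by -1.38, ENO1 by -0.60, THBS1 by -1.04, LPCAT3 by -1.62, ACTR3 by -1.61, MTHFD2 by -1.57 and ODC1 by -1.06, all still called.

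Mitochondrially encoded mRNAs, which are made inside the organelle and carry no cap, were all lower: 10 of 10, with a median of -1.80. CYTB had 11.66, 11.54 and 11.17 untreated and 9.24, 8.96 and 9.85 after Xrn1 (-2.11), and COX2 had 11.61, 11.64 and 11.38 against 9.48, 8.99 and 10.01 (-2.05). They were among the brightest genes tested, with untreated means between 8.37 and 11.54. After cyclic loess, whose curve at that brightness rests in part on these genes themselves, none of the 10 was called and the median was -0.04.

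The cytosolic ribosome went both ways. Of 76 ribosomal protein genes 21 fell and 10 rose, with a median of -0.33, and after cyclic loess 3 fell and 33 rose, with a median of 0.41. Without untreated replicate 2 there were 7 falls and 10 rises, 12 falls without Xrn1 replicate 1, 8 falls without Xrn1 replicate 2 and 5 rises without untreated replicate 1 or Xrn1 replicate 3. RPL6 fell from 7.22, 7.60 and 6.78 to 5.45, 4.99 and 5.68 (-1.83, and -0.91 after cyclic loess), and RPL4 from 8.34, 8.71 and 8.56 to 6.90, 6.55 and 7.51 (-1.55, but -0.21 and not called after cyclic loess). RPS29 rose from 3.94, 4.70 and 4.28 to 6.03, 5.81 and 5.91 (1.61). RPL41, which encodes the smallest of these proteins and was named after its values were seen, rose from 5.95, 6.94 and 6.23 to 7.68, 7.48 and 8.19 (1.41, and 2.48 after cyclic loess). Its probe sets did not move together. Of the 15 that entered the gene value 7 were called higher, and 7 lay lower after Xrn1, 1 of them called. In each of the 4 genes the groups did not overlap. Ribosomal protein genes have near-identical processed copies, so probe sets may take up RNA of more than 1 locus.

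Ribosomal protein mRNAs are known for a run of pyrimidines at their 5′ end, and the starts of the 4 genes are shown because 2 of them rose and 2 fell. They are given from RefSeq (GRCh38.p14), 10 bases before to 20 bases from the annotated start, with runs of 6 or more C or T in a row in capitals, read on the gene's own strand.
RPL41 (chr12:56116623-56116652, plus strand): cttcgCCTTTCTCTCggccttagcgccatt
RPS29 (chr14:49598691-49598720, minus strand): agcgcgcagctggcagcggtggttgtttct
RPL6 (chr12:112411423-112411452, minus strand): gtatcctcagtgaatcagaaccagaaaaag
RPL4 (chr15:66504836-66504865, minus strand): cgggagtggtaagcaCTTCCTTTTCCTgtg
A run was counted where at least 6 C or T in a row lay within 5 bases before to 10 bases from the start. Such a run was present in 47 of 65 ribosomal protein genes with a promoter in the table (72.3%). Among all RefSeq promoters there the share was 13.8%. RPL4, whose run has fewer than 6 bases in that window, counts among the genes without it. The 47 genes with the run had a median change of -0.16, and the 18 without it one of -0.82. Over all genes the share with a run was 14.8% of those called lower, 13.3% of those called higher and 13.7% of those not called. An annotated start need not be the one used in these cells.

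The respiratory chain also went both ways. Of 81 nuclear-encoded oxidative phosphorylation genes 15 fell and 18 rose, with a median of 0.14; without untreated replicate 2 there were 8 falls and 12 rises, without Xrn1 replicate 2 there were 9 falls, and after cyclic loess 9 falls and 29 rises. ATP5F1B, the catalytic beta subunit of ATP synthase, fell from 8.73, 9.33 and 8.78 to 6.62, 6.01 and 7.35 (-2.29), and NDUFA9 of complex I from 6.61, 7.38 and 6.67 to 4.98, 4.41 and 5.25 (-2.01); after cyclic loess these changes were -0.97 and -1.21, both called. NDUFA3, an accessory subunit of complex I, rose from 3.34, 2.90 and 4.13 to 5.29, 5.01 and 5.78 (1.90), NDUFA13 of the same complex by 1.86 and COX6B1 of complex IV, named after its values were seen, by 1.36. Of 76 mitochondrial ribosomal proteins 13 fell and 13 rose, MRPL3 (-2.07) and MRPL54 (1.63) at the ends. Either count was 5 without untreated replicate 2; the falls were 6 without Xrn1 replicate 2 and 21 without untreated replicate 1, and the rises 6 without untreated replicate 1 and 7 without Xrn1 replicate 3. Of 35 genes for mitochondrial import, porins and carriers 15 fell and 4 rose, with the porins VDAC3 and VDAC2 in front (-2.83 and -2.42); 9 fell and 2 rose without untreated replicate 2 or Xrn1 replicate 2, and 1 rose without untreated replicate 1.

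For RNA polymerase II, whose subunits were not counted as a list, 2 genes that the naming rule picked moved in opposite directions. POLR2B fell from 6.26, 7.24 and 6.65 to 4.16, 3.27 and 3.76, whereas POLR2L, a small core subunit, rose from 4.36, 4.53 and 4.93 to 6.31, 6.11 and 6.74 (1.79, limma adjusted p = 4.8e-06). Both changes passed with each gene's own spread. The starts of both genes, shown as a pair from 1 enzyme that moved in opposite directions, hold no pyrimidine run in the window.
POLR2L (chr11:842510-842539, minus strand): cgggccgggcagtctgggacgcgccgccgc
POLR2B (chr4:56978886-56978915, plus strand): gacggaagttacttcgtctttagctcctgg
Of 60 spliceosome, hnRNP and SR protein genes 32 fell and 5 rose; the falls were 17 without untreated replicate 2 and 16 without Xrn1 replicate 2, and 1 rose without untreated replicate 2 or Xrn1 replicate 3 and 2 without Xrn1 replicate 2. SRSF1, a splicing regulator (-2.49), and HNRNPR (-2.22) fell, and SNRPD2, a core Sm protein named after its values were seen, rose from 3.35, 3.15 and 4.01 to 5.47, 5.38 and 5.35 (1.90). POLR2L carries 4 probe sets on the array and POLR2B 27.

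The number of probe sets, which grows with the exons of a gene, went with the change in most lists. In 23 of the 24 lists with at least 5 members on either side, the median change was lower for members with more than 10 probe sets than for those with up to 10. The exception was the list of developmental transcription factors, with 0.87 against 0.76, and the gap was small for lysosomal genes, with -0.62 against -0.52. Ribosomal protein genes had medians of -0.42 and -0.03 in that order and spliceosome genes -0.92 and -0.26. Of the oxidative phosphorylation genes, 48 with up to 10 probe sets had a median change of 0.42, with 5 lower and 15 higher, and 33 with more than 10 had a median of -0.29, with 10 lower and 3 higher. Among mitochondrial ribosomal proteins the medians were 0.23 for 35 genes and -0.33 for 41, and among mitochondrial import genes 0.22 for 9 and -0.82 for 26. Integrated stress response genes had medians of 0.90 for 9 genes and -0.91 for 23. In the nuclear pore, cohesin and chromatin lists every member had more than 10 probe sets. The same split is seen over all genes with a mean level above 5 on the 6 uninduced arrays, which the comparison did not use. Among these 1086 genes the median change went from -0.01 for 68 genes with up to 5 probe sets to -0.71 for 257 genes with 10 to 15 and -1.43 for 37 genes with more than 40; Spearman's rho across these genes was -0.30, and -0.34 after cyclic loess. Genes are not independent replicates, the points share arrays, and no p is given.

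The change also moved with level. By level on the uninduced arrays, the median change was 0.21 for 7773 genes between 3 and 4, -0.63 for 778 genes between 5 and 6 and -1.43 for 87 genes above 7, of which 72.4% were called lower. Cyclic loess, which takes out such a trend, brought the last of these medians to -0.01, but left the order by number of probe sets. Of 107 named falls 27 moved by over 1.5 times with it, of which 22 were still called. Beside those given with their lists these were HSP90B1 (-1.72), TRAM1 (-1.33), ITGB1 (-1.71), KPNA2 (-1.68), HSPA8 (-1.50), PSMA6 (-1.09), SRSF1 (-1.53), CCNB1 (-1.55) and CHD4 (-0.72), in each case with the change after loess in brackets. The GC content of the promoter went with little of the change, with a Spearman's rho of 0.02 over 845 genes with a level above 5. The part of level and of probe set number in the changes of single genes was not tested.

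**Figure D3:**
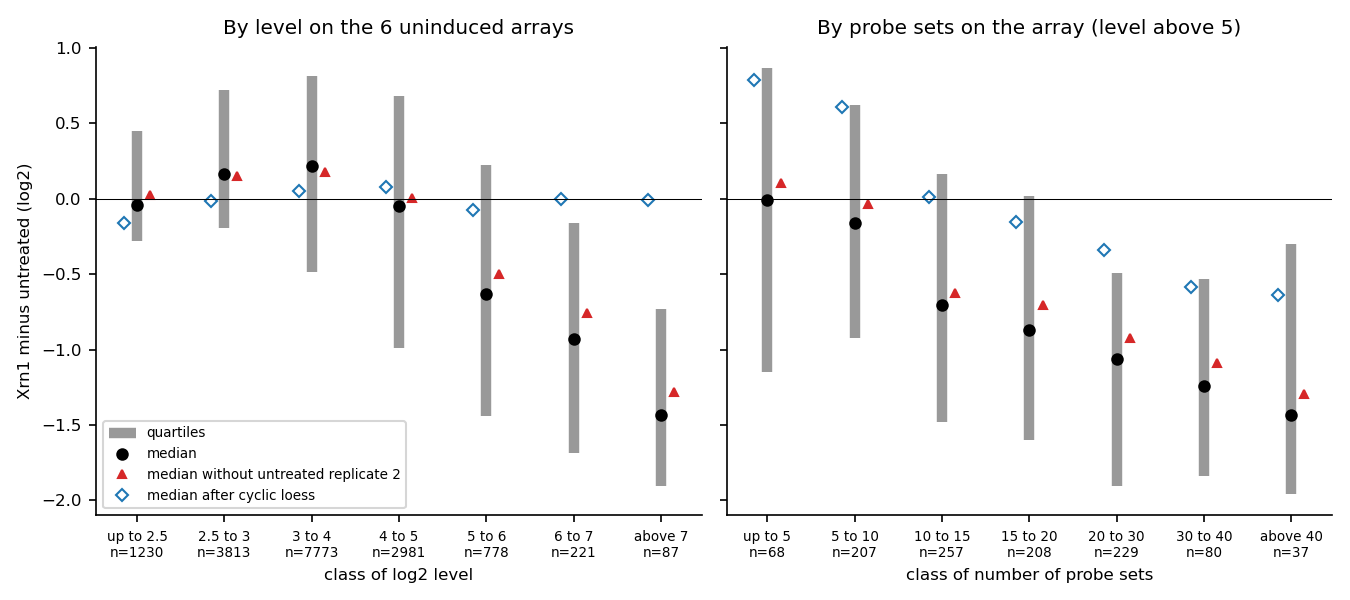
The median change of log2 level on Xrn1 treatment (circles), its quartiles (bars), the median without untreated replicate 2 (triangles) and the median after cyclic loess (diamonds) are plotted for classes of genes by level on the 6 uninduced arrays (left) and, for genes above a level of 5, by number of probe sets on the array (right). The median falls to -1.43 in the last class on either side, and after loess the order remains on the right, from 0.79 to -0.64.

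The largest rises were of genes with low levels before treatment. OR7A2P, an olfactory receptor pseudogene, had 1.03, 1.22 and 2.54 on the untreated arrays and 4.28, 4.55 and 3.63 after Xrn1 (2.55). ULK4P1, another pseudogene, had 2.24, 0.97 and 3.34 against 4.97, 4.75 and 4.36 (2.51). SOX7, a transcription factor of endothelial development, had 2.81, 1.56 and 4.31 against 5.10, 5.54 and 5.02 (2.33). The groups did not overlap, and untreated replicate 3 was the highest untreated array in all 3. The remaining 7 of the 10 largest rises, by 1.91 to 2.55, were MYADML2, GLOD5, C1QTNF9, CTXN1, PDF, CFAP53 and PAK5. Of these 10, 5 passed with each gene's own spread and 10 without untreated replicate 2. They carried 3 to 20 probe sets on the array with a median of 7, and 3 to 6 of them entered the gene value. Without the filter on dim probe sets 8 of the 10 passed, and 6 changes were smaller by over 1.5 times. C1QTNF9 (0.65) and CFAP53 (0.44) were then not called, and OR7A2P changed by 0.79.

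Among genes with a mean level above 5 over all arrays of the series, the largest rises ran from 1.42 to 1.79. Beside POLR2L, RPS29 and UBE2S they were CALM3, a calmodulin gene, CPLX4, a complexin of synaptic vesicles, SAC3D1, a centrosomal protein, the pseudogene TSPY26P, CPT1B, the muscle form of carnitine palmitoyltransferase, PCSK1N, a proprotein convertase inhibitor, and LCE1D, a protein of the cornified envelope of skin. The mean over all arrays includes the Xrn1 arrays, so this cut did not select genes that were above 5 before treatment. Untreated means of these rises ran from 4.31 for RPS29 to 5.06 for TSPY26P, and only TSPY26P lay above 5. CALM3 had 4.30, 3.62 and 5.18 untreated and a mean of 6.06 ± 0.16 (SD, n = 3) after Xrn1 (1.69). SAC3D1, with 4.61, 4.15 and 4.98 against 6.25, 5.94 and 6.18 (1.54), was even within both groups. Of these 10 rises 5 passed with each gene's own spread and 8 without the filter on dim probe sets, where CPLX4 went from 1.68 to 0.57 and CPT1B from 1.48 to 0.73 and neither was called. BCYRN1, a short RNA made by RNA polymerase III, was the brightest gene named here that rose, from 7.12, 7.05 and 8.02 to 8.78, 8.70 and 8.85 (1.38, and 2.78 after cyclic loess).

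Transcription factors that define other tissues rose in many cases. Of 52 developmental transcription factors of other lineages 28 were called higher and none lower, with a median change of 0.84; OLIG1 of glial cells rose from 2.65, 2.10 and 3.79 to 4.44, 4.47 and 4.42 (1.60), and LHX3 of the pituitary by 1.48. Of 37 keratin-associated and defensin genes 11 were higher and none lower, DEFB132 by 1.42. Of 44 olfactory receptor genes 5 were higher and none lower, a smaller share than the 21.6% of all genes, with a median of 0.14; OR2S2 rose by 1.19. Without untreated replicate 2 the counts of these 3 lists were 6, 1 and 1, without Xrn1 replicate 2 they were 20, 7 and 1, without Xrn1 replicate 3 they were 17, 4 and 3, and without untreated replicate 3 they were 34, 19 and 7. Their levels were low on every array: the members' mean level was 2.95, 2.65 and 3.52 untreated and 3.81, 3.80 and 3.85 after Xrn1 for the transcription factors, and 2.60, 2.57 and 2.55 against 2.73, 2.78 and 2.74 for the olfactory receptors. A rise among such genes is a rise of values near the lower end of the scale. Of 412 ZNF zinc finger genes 42 fell and 74 rose, with a median of 0.18; ZNF283 changed by -2.46 and ZNF688 by 1.80, and there were 23 falls and 12 rises without untreated replicate 2, 22 and 39 without Xrn1 replicate 2, and 31 and 139 without untreated replicate 3.

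Immediate early and interferon-stimulated mRNAs had more rises than falls, as all genes did, and integrated stress response genes had more falls. In each of these lists the rises were far fewer without untreated replicate 2. Of 47 immediate early and short-lived mRNAs 13 rose and 4 fell, and 4 rose and none fell without that array; 9 rose and none fell without Xrn1 replicate 2, and 8 rose and 1 fell without Xrn1 replicate 3. JUND, an AP-1 subunit, rose from 3.61, 3.61 and 4.78 to 5.71, 5.33 and 5.58 (1.54), EGR2 by 1.70, FOSB by 1.45 and JUNB by 1.37; of these 4, JUND passed with its own spread. Of 37 interferon-stimulated genes and RNA sensors 15 rose and 4 fell, and 2 rose without that array and 6 without Xrn1 replicate 2. IFI27 (1.46) and BST2 (1.30), membrane proteins induced by interferon, rose, and the RNA-activated kinase EIF2AK2 (-1.60) and the antiviral ZC3HAV1 (-1.53) fell. Of 32 integrated stress response genes 13 fell and 7 rose, 10 and 3 without untreated replicate 2. Called without each induced array in turn were 10 of these falls and 3 of these rises.

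Long noncoding RNAs went both ways, and histone mRNAs fell or were not called. Of 14 long noncoding RNAs 4 fell and 5 rose. TUG1 (-2.11) and MALAT1 (-1.91) were among the falls, and without untreated replicate 2 there were 3 falls and 1 rise, and without Xrn1 replicate 2 there were 2 of each. Of 16 snoRNA host genes 4 fell and 4 rose, SNHG11 by 1.46 and SNHG3 by -1.25, with 1 rise and no fall without untreated replicate 2 and 1 rise and 2 falls without Xrn1 replicate 2; SNHG3, whose level was 4.41 on untreated replicate 2 and 3.21 and 3.26 on the others, was not called without that array. Of 14 replication-dependent histone genes, whose mRNAs end without a poly(A) tail, 7 fell and none rose. H1-4 changed by -1.88, but by -0.19 and without a call after cyclic loess, where 2 of the 14 fell; 4 fell without Xrn1 replicate 2. Histone genes have near-identical copies and their values may be shared.

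**Figure D4:**
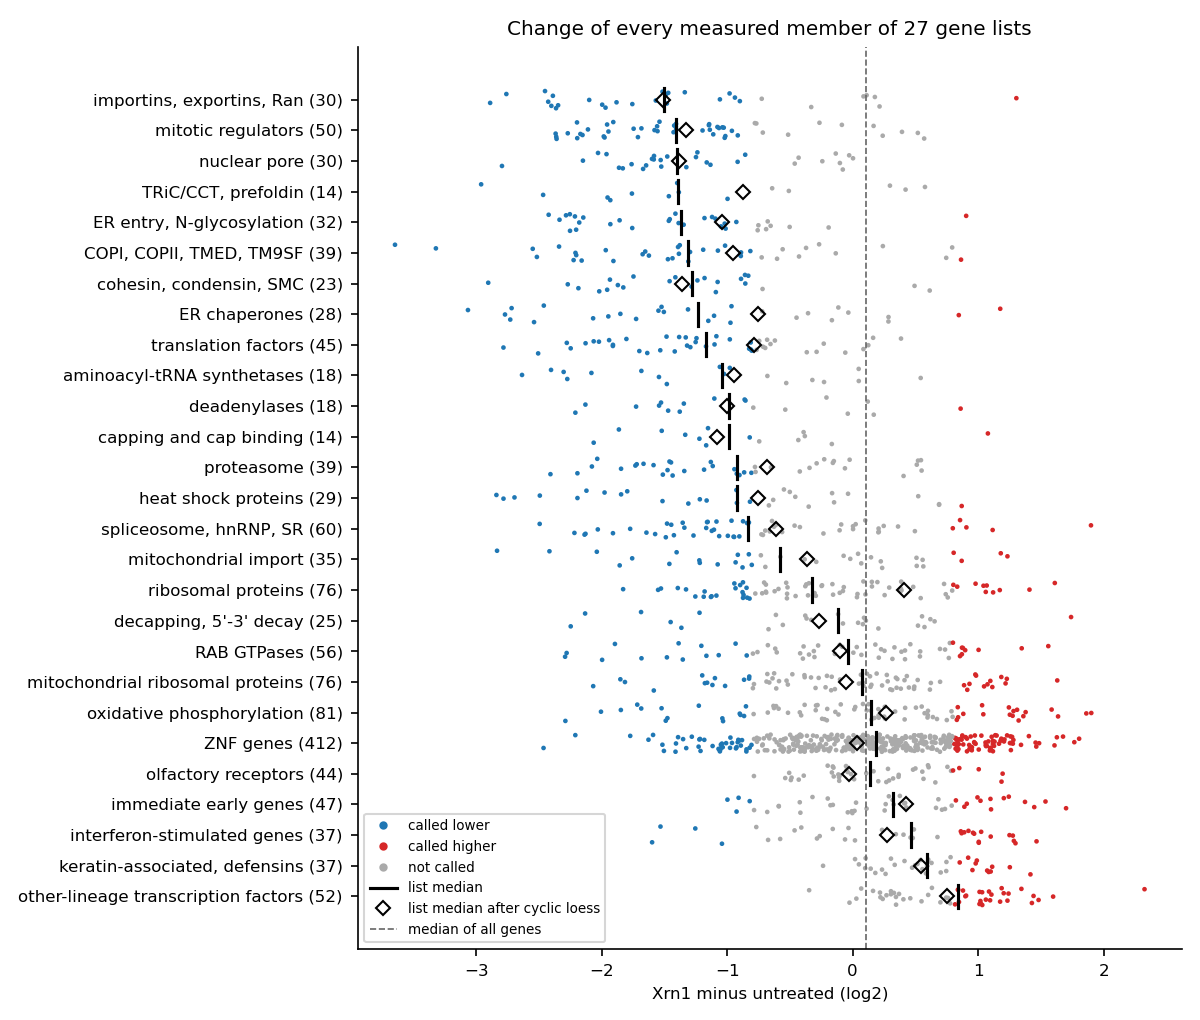
Each point is a measured member of one of 27 gene lists, placed by its change of log2 level on Xrn1 treatment (Xrn1 minus untreated) and coloured by its call; thick bars are list medians, diamonds the medians after cyclic loess, and the dashed line the median of all genes, 0.10. List sizes stand in brackets. Medians run from -1.50 for importins and exportins to 0.84 for the transcription factors of other lineages, and that of the ribosomal proteins changes sign with loess.

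mRNAs named in published work on cytoplasmic capping were 13 of 16 measured. Whether that work drew on these same arrays was not checked, so the counts are a description and no independent support. Of the 13 genes 7 fell and 2 rose, with a median of -0.85, or 0.10 after cyclic loess. Without untreated replicate 2 there were 4 falls and no rise, and without Xrn1 replicate 2 there were 4 falls and 1 rise. ITGB1, VDAC3 and POLR2B showed the largest falls. BOP1, a ribosome biogenesis factor, had 4.23, 4.53 and 5.39 untreated and 5.53, 5.39 and 5.87 after Xrn1; its change of 0.88 passed (limma adjusted p = 0.030) although untreated replicate 3 lay at the level of Xrn1 replicate 2, and it did not pass with its own spread (0.083). The call was lost in 10 of the 17 other settings, among them the loss of any 1 of 5 of the 6 induced arrays, the exception being untreated replicate 3.

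The labelled cell type was checked against 16 markers of mesenchymal and osteoblast-lineage cells, which gave mean levels between 5.00 and 5.39 on the untreated arrays. Single markers differed widely, with untreated means from 2.73 to 8.33 and a median of 4.59. The lowest thus lay within the range of the markers of other cell types, 2.05 to 4.40. Of the 16 markers 5 fell, 1 rose and 10 were not called. Without untreated replicate 2 or without Xrn1 replicate 2, 3 fell and none rose. FN1, fibronectin, went from 6.23, 7.33 and 7.39 to 4.85, 4.25 and 5.45 (-2.14, and -1.37 after cyclic loess), and SPARC, osteonectin, from 7.94, 8.69 and 8.05 to 6.69, 6.19 and 6.92 (-1.63, but -0.34 and not called after cyclic loess). Of 18 measured markers of other cell types none fell and 6 rose, PMEL by 1.19, GFAP by 1.02 and SYP by 1.01 among them. None of the 6 passed without untreated replicate 2, and without Xrn1 replicate 2 there were 3 rises. The mean level of the 18 was 2.91, 2.77 and 3.39 untreated and 3.43, 3.45 and 3.58 after Xrn1, low on every array; on this log2 scale no marker is listed at 0. In bulk RNA a low marker level does not tell few cells of a type from little RNA per cell, and Xrn1 was added to extracted RNA, so the changes concern the extract and not the cells.

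Whether the effect was particular to induced cells was asked with the interaction term, the difference of the Xrn1 changes in induced and uninduced cells. For 3687 genes (21.8%) it passed limma at an adjusted p below 0.05, in 3479 of them with the induced change above the uninduced one. None of the 10 largest falls passed it: TMED7 changed by -3.74 in uninduced cells, a difference of 0.09 with a standard error of 0.48. Among the mRNAs that rose in induced cells and passed it, SNRPD2 changed by -0.51 in uninduced cells, NDUFA3 by -0.46, RPS29 by -0.45, POLR2L by -0.13 and RPL41 by -1.07, with differences between 1.92 and 2.48. The number of genes that differ is not firm. It was 64 without uninduced Xrn1 replicate 2, an array that correlated at 0.71 and 0.85 with the others of its group, 50 without induced Xrn1 replicate 3, 8400 without induced untreated replicate 3 and 0 with each gene's own spread, where 6306 genes had an unadjusted p below 0.05.

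Over single probe sets more were called lower than higher: of 255378 tested, 36855 were called lower (14.4%) and 20158 higher (7.89%). For TMED7 all 6 probe sets that entered the gene value were called lower.

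**Figure D5:**
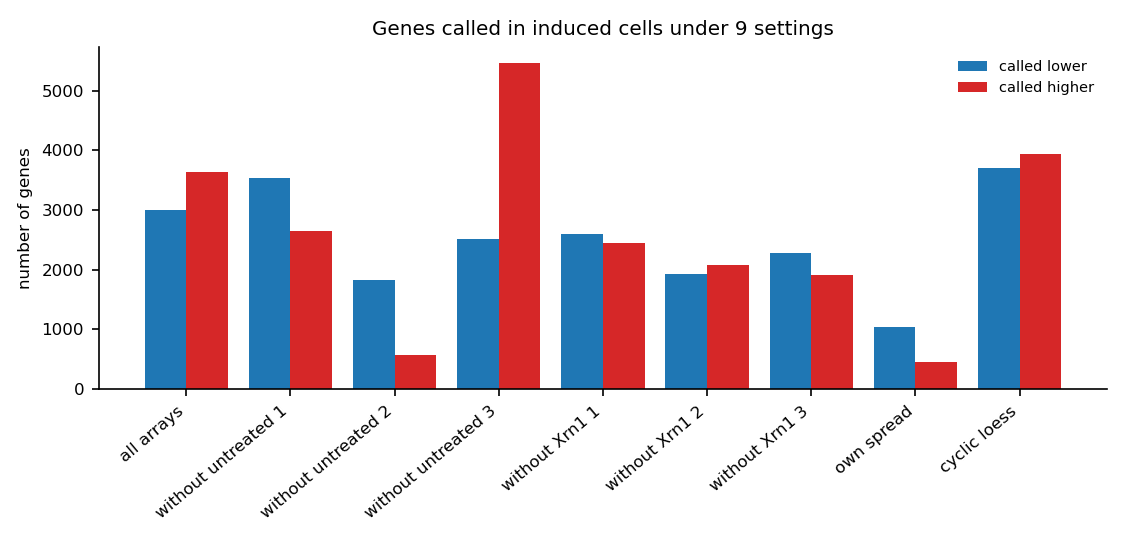
Bars give the number of genes called lower and higher on Xrn1 treatment in induced cells with all arrays, without each of the 6 induced arrays, with each gene's own spread and after cyclic loess; the y axis counts genes from 0. Genes called higher range from 455 with each gene's own spread to 5460 without untreated replicate 3, and genes called lower from 1037 to 3698.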

How the data were processed

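Cytoplasmic RNA of 12 samples in 4 groups of 3 was measured on exon arrays. The deposited values are log2 probe set levels, and the submitters' processing notes name RMA and oligo for the authors' processing; for versions and genome build the sources used here give nothing. The title of the first induced Xrn1 sample carries replicate number 2; it was taken as replicate 1 from its sample number. No scan date, slide or read depth was given, so the number of arrays limits precision.

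Of 1411399 probe sets, 357604 carry 1 gene symbol in the annotation table, 15322 several and 1038473 none. Symbols were updated through RefSeq names (16472 current, 2966 updated, 122 kept). Probe sets with a 12-array mean above the median of all, 2.04, were kept (258175), and a gene with at least 3 of them took their mean. limma 3.58.1 (R 4.3.3) was fitted on all 12 arrays with 4 group means, with Benjamini-Hochberg adjustment over 16883 genes at 0.05. With 8 residual degrees of freedom limma returned an infinite prior, so all genes share 1 SD. On simulated data the fit recovered 100% of log2 changes of 2 and 24% of changes of 1, with 9 false calls among 16883 genes. The simulated noise was independent, with the same SD of 0.418 for every gene and array, as the fit assumes. In the real arrays the median SD was 0.51 untreated and 0.16 after Xrn1. The simulation therefore cannot give the rate of false calls in the real data. Python 3.11.15 made the summaries.

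Genes were named by a rule: the 10 largest falls and rises among called genes without overlap, the same for genes with a mean level above 5, up to 4 members of each of 51 lists with the smallest p, and RNGTT, XRN1 and BOP1; provisional, antisense and read-through names were left out. Exceptions are marked as named after their values were seen. The members and lists were chosen with earlier results of these data known. Promoters come from RefSeq (GRCh38.p14). A planned description by protein length was not run, as no protein table was used here. Alternatives were another summary, filter, scaling, spread, sample set, pairing and threshold, and leaving out each array; the spread of the 6 induced arrays alone and the loss of each uninduced array were added after the data were seen.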

Additional observations from a re-analysis of the deposited data

Results flagged for a closer look

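The difference of the Xrn1 changes between induced and uninduced cells passed limma's interaction test for 3687 of all genes (21.8%). Of 152 named genes 33 passed it. In all 33 the induced change lay above the uninduced one, by log2 differences with a standard error of 0.48. That direction was shared by 3479 of the 3687 genes. The named rises were mostly picked by their change in induced cells, so the direction is not a result about the named genes. Among genes that rose in induced cells the difference was 2.56 for ULK4P1, 2.48 for RPL41, 2.41 for SNRPD2, 2.36 for NDUFA3, 2.06 for RPS29, 2.02 for COX6B1 and 1.92 for POLR2L. It was 1.76 for LSM7, 1.73 for JUNB, 1.72 for NDUFA13, 1.69 for UBE2S, 1.64 for EPN1, 1.54 for CFAP53 and 1.52 for OR2S2. SNHG11 and EGR2 each differed by 1.48, FOSB by 1.45, CTXN1 and JUND by 1.44, DEFB132 and IFI27 by 1.39 and OLIG1 by 1.31.

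Among genes that fell in induced cells, the fall was smaller than in uninduced cells by 1.56 for LPCAT3, 1.45 for XRN2, 1.38 for HIF1A, 1.37 for CNOT1, 1.31 for ATP5F1B, 1.30 for ERGIC2, 1.29 for AURKA, 1.28 for STT3A and TUG1, and 1.27 for COX2 and CNOT7. None of these differences passed with each gene's own spread, where no gene of all tested did and 6306 had an unadjusted p below 0.05.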

How the results depend on the processing

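Counts below are of genes called at an adjusted p below 0.05, beside 3000 lower and 3643 higher, 6643 in all. With each gene's own spread they were 1492 in all, 1037 lower and 455 higher; with a required change of 1.5-fold, 1126, 975 and 151. Gene values taken as medians of probe sets gave 2186 higher. Without each induced array in turn the total ranged from 2395 to 7979, the falls from 1831 to 3532 and the rises from 564 to 5460, the lowest always without untreated replicate 2. Without each uninduced array the total ranged from 6090 to 7347. The spread of the 6 induced arrays alone, added after the data were seen, gave 1 lower, 0 higher and 1 in all, with 5487 genes at an unadjusted p below 0.05. The other settings, among them cyclic loess with 7641, stayed within 1.5 times of the total.

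The count of genes whose Xrn1 change differed between induced and uninduced cells, 3687, was 1465 with the median of probe sets, 1165 with only probe sets above the upper quartile, 2360 with at least 1 probe set per gene, 1856 with centred arrays, 423 after cyclic loess, 0 with each gene's own spread and 1 with a required change of 1.5-fold. It ranged from 50 to 8400 without each induced array and from 64 to 4426 without each uninduced array. The cause of these shifts was not tested.

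With the first induced Xrn1 sample taken as replicate 1, deviations of same-numbered arrays correlated at -0.44, -0.40 and 0.13. Untreated replicate 2 correlated at 0.48 with Xrn1 replicate 1, and untreated replicate 1 at 0.46 with Xrn1 replicate 2. The numbers used here thus show no pairing, and whether the samples pair in another order was not tested. With the replicate number as a block in the 6 induced arrays 6409 genes were called, 2929 lower and 3480 higher. None of the 152 named genes counted below lost its call.

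The counts of named genes cover 152 genes and leave out SSR4, COPE, SDF2L1, FKBP2, NXT1, BAG1, PCIF1, CNOT3 and EXOSC4. What became of those calls without untreated replicate 2 is given with their lists. All 152 were called, and 110 kept their call under every setting run. Of 2578 combinations of a named gene and a setting 84 lost the call and 0 changed direction. Each gene's own spread ended 28 calls, 6 of them falls, the required 1.5-fold change 23, the loss of untreated replicate 2 ended 9, dropping the probe set filter 6, and cyclic loess 5: SPARC, RPL4, CYTB, COX2 and H1-4. Genes called higher had a median untreated level of 2.81, against 4.51 for those called lower; the part of low signal in the lost calls was not tested.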
